A study of Mus musculus with 16 samples.

Results

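Transcripts of 8 complement components and regulators were followed in mouse cardiac fibroblasts that had lost or gained the transcription factor Tcf21. The genes were taken by symbol: the opsonin precursor C3, the classical pathway genes C1ra and C4b, the alternative pathway protease Cfb, the terminal pathway gene C7, and the regulators Serping1, Clu and Cd55. They are 8 of the 19707 genes listed in any of 3 tables of normalized counts. All 8 had a row in the uninjured loss table (18634 genes) and in the gain table (17730 genes). For infused loss 6 of the 8 were analysed (17303 genes), and Clu and Serping1 were not analysed there.

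Complement is a cascade of proteases and cofactors that marks surfaces for uptake and calls in leukocytes. The classical pathway starts when C1q binds a target, its partner protease C1r activates C1s, and C1s cleaves C4 and C2. The alternative pathway uses factor B. Both routes form convertases that split C3, and further cleavage leads to a membrane pore whose assembly takes in C7. Host cells hold the cascade back with soluble inhibitors such as C1 inhibitor and clusterin, and with membrane proteins such as CD55. The liver makes most plasma complement, and stromal cells including fibroblasts also transcribe many of these genes.

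Cardiac fibroblasts of mice aged 8 to 12 weeks were sorted by flow cytometry, and RNA sequencing gave 16 libraries in 6 groups. All mice carried a Cre-dependent EGFP reporter at Rosa26 and received tamoxifen. The uninjured loss group (floxed Tcf21 with Tcf21-MerCreMer, 3 libraries, called Tcf21 deleted) and its controls (Tcf21-MerCreMer without the floxed allele, 3 libraries) were taken 2 weeks after tamoxifen. The infused loss group (2 libraries) and its controls (3 libraries) had the same genotypes and 1 week of angiotensin II and phenylephrine, agents that drive cardiac fibrosis. The gain group (Col1a1-TCF21 with Pdgfra-CreERT, 2 libraries) and its controls (Pdgfra-CreERT alone, 3 libraries) had the same infusion. In both arms the Cre line that set the genotype also switched on the reporter used for sorting, so deletion, expression and sorting all depended on cells that use the Tcf21 or the Pdgfra promoter.

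The deposited normalized counts summed to between 27814940 and 40970391 per library. Log2 values of libraries in one table correlated at 0.944 to 0.981, and 0 columns were identical. Tcf21 was lower after deletion in both settings (log2 fold change -2.49 uninjured and -3.17 infused, adjusted p = 4.22e-05 and 0.00494) and higher in the gain group (1.29, adjusted p = 0.00446). All 10 fibroblast markers on the list used were listed in each table and summed to at least 2960720 per library. Endothelial markers summed to at most 20419.7 and mural cell markers to at most 18066. Mesothelial markers summed to at most 29.9, but only 3 (uninjured loss), 2 (infused loss) and 1 (gain) of those 11 were listed. The tables were normalized separately, so a level in one table is not on the scale of another. The labels do not tell which libraries are from different animals, and the p-values cover no more than the spread among the libraries sequenced. In bulk RNA fewer cells of a type and less RNA per cell cannot be told apart.

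Levels of the 8 genes spanned a wide range when divided by the length of the longest coding transcript. In uninjured control fibroblasts Serping1 was highest, at 80908 ± 3084 normalized counts per kb (SD, n = 3), and C3 followed at 20177 ± 2131 per kb. C1ra stood at 8211 ± 571 per kb. Cd55 at 6125 ± 529 per kb and C7 at 6078 ± 1070 per kb were next and did not differ beyond their spread. C4b lay at 1679 ± 53.0 per kb, Clu at 401 ± 32.7 per kb and Cfb at 350 ± 51.6 per kb. The ranges of Clu (378 to 439 per kb) and Cfb (292 to 391 per kb) overlapped. The C1ra partner C1s1, a complement gene outside the 8, reached 8648 ± 310 per kb. The message for the C1 inhibitor was thus the highest of the 8 in these cells, on the per kb scale. In the gain controls the order was Serping1 at 44034 ± 5586, C3 at 11789 ± 2590, C1ra at 5050 ± 897, Cd55 at 3251 ± 645, C4b at 2522 ± 398, C7 at 1820.5 ± 651, Cfb at 742 ± 254 and Clu at 626 ± 23.9 per kb (SD, n = 3). There the range of C4b (2065 to 2789 per kb) overlapped with those of its neighbours Cd55 (2570.3 to 3854 per kb) and C7 (1093 to 2349.5 per kb), and the range of Cfb (450.2 to 909.8 per kb) held that of Clu (609 to 653 per kb).

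**Figure D1:**
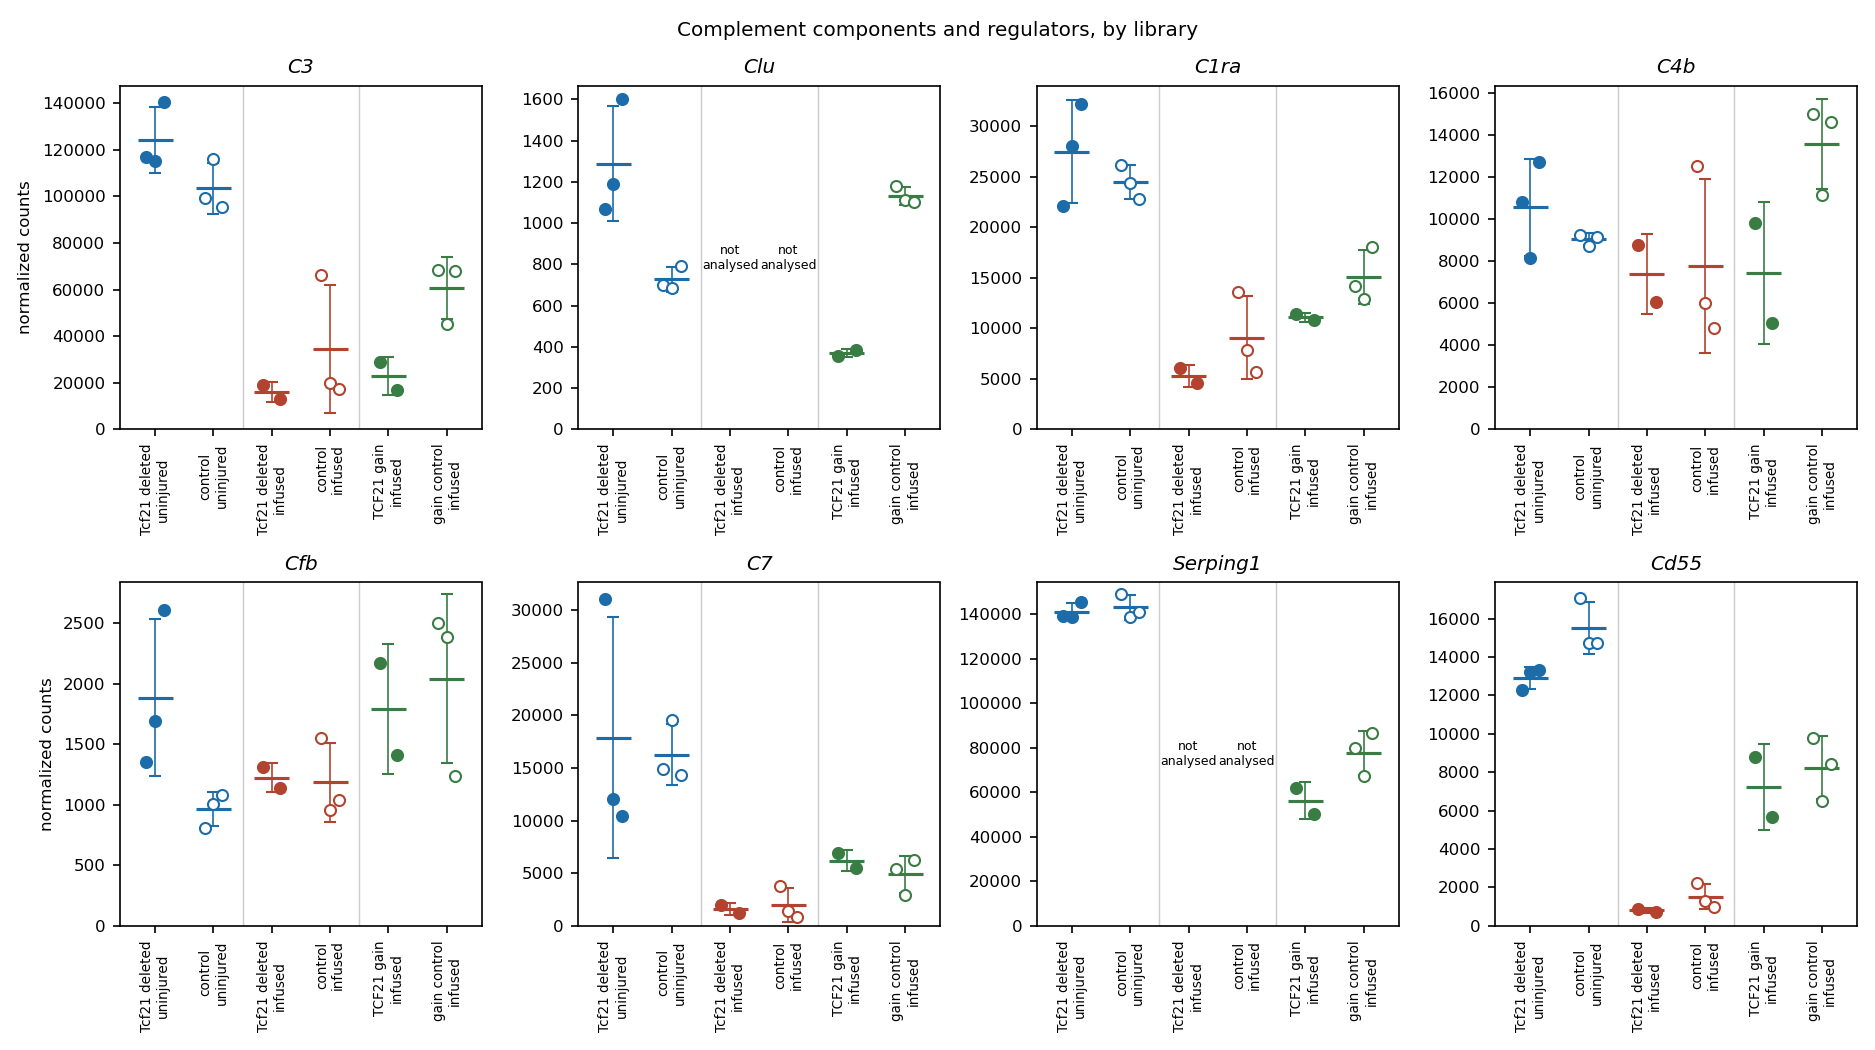
Normalized counts (linear axes from 0, a scale of its own in each panel) of the 8 complement genes in each of the 16 libraries, by group, with the mutant group left of its control in every pair; points are libraries, horizontal lines are group means and bars are ± 1 SD. Clu lies above its controls in the uninjured Tcf21 deleted libraries and below them in the gain libraries, and it has no points for infused loss.

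C3, whose cleavage is the step shared by all routes of complement, fell with gain of TCF21. It held 28733 and 17044 normalized counts in the gain libraries, against 68361, 45186 and 68096 in their controls. Both gain libraries lay below all 3 controls. The group means were 22889 ± 8265 and 60548 ± 13304 (SD, n = 2 and 3), and the log2 fold change was -1.43 (SE 0.264, 95% interval -2.05 to -0.81, adjusted p = 0.0318). The call was lost without gain library 2 (log2 fold change -1.05, adjusted p = 0.17), gain control 1 (-1.33, adjusted p = 0.0942) or gain control 3 (-1.33, adjusted p = 0.05), and without a variance trend in the fit (adjusted p = 0.142).

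Loss of Tcf21 gave no C3 call in either setting. Without injury C3 stood at 117007, 115146 and 140777 in the Tcf21 deleted libraries, against 99239, 116086 and 95566 in controls. The 2 groups overlapped, through control 2. The log2 fold change was 0.26 (SE 0.117, 95% interval -0.0048 to 0.53, adjusted p = 0.243). After infusion C3 stood at 19207 and 13098 in Tcf21 deleted libraries, against 66379, 20013 and 17162 in controls. Control 1 lay far above the other 4 libraries, and controls 2 and 3 overlapped with the deleted libraries. The log2 fold change was -0.84 (SE 0.559, 95% interval -2.17 to 0.49, adjusted p = 0.495), and -0.22 without control 1. With the replicate block it was -1.20 (adjusted p = 0.00854), in a fit with 1 residual degree of freedom.

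The sequence just before the start of C3 is shown because Tcf21 belongs to the basic helix-loop-helix family, which binds E-boxes (CANNTG), and C7 is set beside it because these 2 genes differed in the gain group, C3 being called and C7 not. RefSeq promoter entries (GRCm38.p6) matched by symbol gave these 250 bases upstream of the start, 5′ to 3′ on the minus strand in both cases, with each CANNTG in capitals. The C3 stretch is chr17:57228137-57228386 and the C7 stretch is chr15:5063774-5064023.
C3: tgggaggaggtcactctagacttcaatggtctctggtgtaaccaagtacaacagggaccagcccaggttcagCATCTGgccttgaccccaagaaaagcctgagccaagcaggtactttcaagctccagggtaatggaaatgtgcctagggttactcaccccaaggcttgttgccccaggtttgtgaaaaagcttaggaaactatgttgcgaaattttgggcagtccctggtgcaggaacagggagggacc
C7: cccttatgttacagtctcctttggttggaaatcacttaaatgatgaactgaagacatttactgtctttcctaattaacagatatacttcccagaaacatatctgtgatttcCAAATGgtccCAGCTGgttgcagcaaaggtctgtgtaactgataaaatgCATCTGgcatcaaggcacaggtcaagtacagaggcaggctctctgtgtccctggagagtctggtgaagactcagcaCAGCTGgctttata
The C3 stretch held 1 E-box, CATCTG, 178 bases upstream of the start. The C7 stretch held 4, of which CAGCTG stood at 129 and at 14 bases upstream. Other genes not called after gain differed from C7. The C1ra stretch held CAAATG at 119 and 67 and CAGATG at 55 bases upstream of the RefSeq start. GENCODE vM21 starts C1ra at 124512405, inside this stretch (chr6:124512371-124512620, plus strand), and all of these matches lie past that start. The Cd55 and C1s1 stretches held no CANNTG. C7 therefore does not stand for the genes not called. CANNTG, whose reverse complement has the same form, occurred in 66.2% of 32851 mouse promoter stretches of this length, CAGCTG in 13.0%, and CATCTG or its reverse complement CAGATG in 14.4%. A match is a string of letters and not a bound site, and no binding was measured in these libraries.

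Clu encodes clusterin, a secreted chaperone that binds the forming terminal complex and keeps it from inserting into membranes. It was the only one of the 8 genes past the threshold after loss of Tcf21 without injury, where 3.58% of all tested genes passed, and with C3 one of those past it, at the opposite sign, after gain, where 4.14% passed. In the gain libraries it held 354 and 384 normalized counts, against 1182, 1113 and 1103 in controls, so both gain libraries lay below all controls and the controls lay close together. The means were 369 ± 21.1 and 1133 ± 43.2 (SD, n = 2 and 3), with a log2 fold change of -1.61 (SE 0.110, 95% interval -1.87 to -1.36, adjusted p = 0.00215). The call was kept without each of the 5 libraries in turn, with log2 fold changes between -1.67 and -1.56.

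Without injury Clu rose after deletion of Tcf21, to 1071, 1191 and 1603 normalized counts in Tcf21 deleted libraries, against 700.2, 685 and 794 in controls. All deleted libraries lay above all controls. The means were 1288 ± 279 and 726 ± 59.2 (SD, n = 3 each), with a log2 fold change of 0.81 (SE 0.157, 95% interval 0.45 to 1.16, adjusted p = 0.033). This call was less firm: it was lost without control 1 (adjusted p = 0.102), control 2 (adjusted p = 0.145), control 3 (adjusted p = 0.106) or deleted library 2 (adjusted p = 0.0587), while the log2 fold change stayed between 0.64 and 0.93. It was also lost without a variance trend in the fit (adjusted p = 0.137). Clu lies on the plus strand of chromosome 14 (65968483 to 65981547, GRCm38).

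The classical pathway protease C1ra and its neighbour on the substrate side, C4b, did not pass in any comparison. C1ra held 11377 and 10786 normalized counts in the gain libraries, against 14158, 12944 and 18061 in controls. Both gain libraries lay below all controls, at a log2 fold change of -0.43 (SE 0.145, 95% interval -0.77 to -0.089, adjusted p = 0.159). In the infused loss comparison C1ra stood at 6029.6 and 4534 in Tcf21 deleted libraries, against 13625, 7888 and 5713 in controls. These overlapped through control 3 (log2 fold change -0.70, SE 0.342, adjusted p = 0.368, and -0.36 without control 1). Without injury it stood at 22098, 28097 and 32244.5 in Tcf21 deleted libraries, against 26221, 24385 and 22823 in controls, again overlapping (log2 fold change 0.15, SE 0.131, adjusted p = 0.547).

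C4b, which encodes the C4 protein that C1s cleaves, held 9820.4 and 5038 normalized counts in the gain libraries, against 15002, 11109 and 14593 in controls. The groups did not overlap, and gain library 2 lay well below gain library 1. The log2 fold change was -0.93 (SE 0.269, 95% interval -1.57 to -0.30, adjusted p = 0.110). It was -1.42 without gain library 1, where it passed (adjusted p = 0.0332), and -0.45 without gain library 2. After infusion C4b stood at 8743 and 6053 in Tcf21 deleted libraries, against 12496, 6019 and 4794 in controls (log2 fold change 0.031, SE 0.392, adjusted p = 0.975). The deleted libraries lay inside the range of the controls, and the log2 fold change was 0.44 without control 1. Without injury it stood at 10813, 8133 and 12715 in Tcf21 deleted libraries, against 9250.4, 8709.8 and 9136 in controls, with the controls inside the range of the deleted libraries (log2 fold change 0.20, SE 0.143, adjusted p = 0.459).

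Cfb encodes factor B, the protease of the alternative pathway convertase. Without injury it held 1350.3, 1693 and 2608 normalized counts in Tcf21 deleted libraries, against 804, 1008 and 1077 in controls. All 3 deleted libraries lay above all controls and spread widely among themselves. The means were 1884 ± 650.0 and 963 ± 142 (SD, n = 3 each), and the log2 fold change of 0.92 (SE 0.223, 95% interval 0.42 to 1.43) did not pass (adjusted p = 0.0577). With 1 library left out it passed in 1 of 6 fits, without deleted library 1 (log2 fold change 1.14, adjusted p = 0.02). It also passed in 4 of 11 other settings. These were a pseudocount of 10 (adjusted p = 0.0493), a mean of at least 50 (0.0467), library weights (0.0207) and the replicate block (0.0302). After infusion Cfb stood at 1307 and 1141 in Tcf21 deleted libraries, against 1553, 955 and 1042 in controls (log2 fold change 0.079, SE 0.211, adjusted p = 0.881). In the gain libraries it stood at 2172 and 1409, against 2503, 2381 and 1239 in controls (log2 fold change -0.15, SE 0.320, adjusted p = 0.838). In both infused comparisons the groups overlapped, and the sign turned with 1 library left out.

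C7, the terminal component that anchors the forming complex in the membrane, varied widely among replicates. Without injury it held 31091, 12087 and 10444 normalized counts in Tcf21 deleted libraries, against 14858, 19559.7 and 14374 in controls. Deleted library 1 was the highest and the other 2 deleted libraries were the lowest of the 6 (log2 fold change -0.030, SE 0.350, 95% interval -0.82 to 0.76, adjusted p = 0.973). After infusion it stood at 2003 and 1197 in Tcf21 deleted libraries, against 3796, 1389.5 and 789.9 in controls (log2 fold change -0.055, SE 0.605, adjusted p = 0.971, and 0.56 without control 1). In the gain libraries it stood at 6929 and 5469, against 5402.5, 2925 and 6287 in controls. C7 was the only one of the 8 with a positive log2 fold change there (0.41, SE 0.301, 95% interval -0.29 to 1.12, adjusted p = 0.505), and its groups overlapped.

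Serping1, the C1 inhibitor that inactivates C1r and C1s, varied little in uninjured cells. It held 139288, 138937 and 145509 normalized counts in Tcf21 deleted libraries, against 149213, 138870 and 141054 in controls, in overlapping groups. The log2 fold change was -0.018, with a 95% interval of -0.22 to 0.18 (SE 0.0887, adjusted p = 0.931). In the gain libraries it stood at 62059 and 50284.5, against 79806, 67144 and 86605 in controls. Both gain libraries lay below all controls, at a log2 fold change of -0.47 (SE 0.166, 95% interval -0.86 to -0.082, adjusted p = 0.173).

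Cd55, the membrane-anchored factor that speeds the decay of convertases, had lower values after loss of Tcf21 in both settings without passing in either. Without injury it held 12272, 13198 and 13313 normalized counts in Tcf21 deleted libraries, against 17061, 14753 and 14729.6 in controls. The groups did not overlap, at a log2 fold change of -0.26 (SE 0.0830, 95% interval -0.45 to -0.072, adjusted p = 0.118). After infusion it stood at 896 and 696 in Tcf21 deleted libraries, against 2251, 1303 and 999 in controls, again without overlap (log2 fold change -0.86, SE 0.323, 95% interval -1.63 to -0.087, adjusted p = 0.273, and -0.53 without control 1). In the gain libraries it stood at 8803 and 5646, against 9761, 6511 and 8432 in controls, with overlap (log2 fold change -0.20, SE 0.222, adjusted p = 0.668). The control mean of Cd55 was 1518 in the infused loss table, 8235 in the gain table and 15514 in the uninjured table. Those of C7 were 1992, 4872 and 16264, and those of C3 were 34518, 60548 and 103630, in the same order, and these levels come from separate normalizations.

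**Figure D2:**
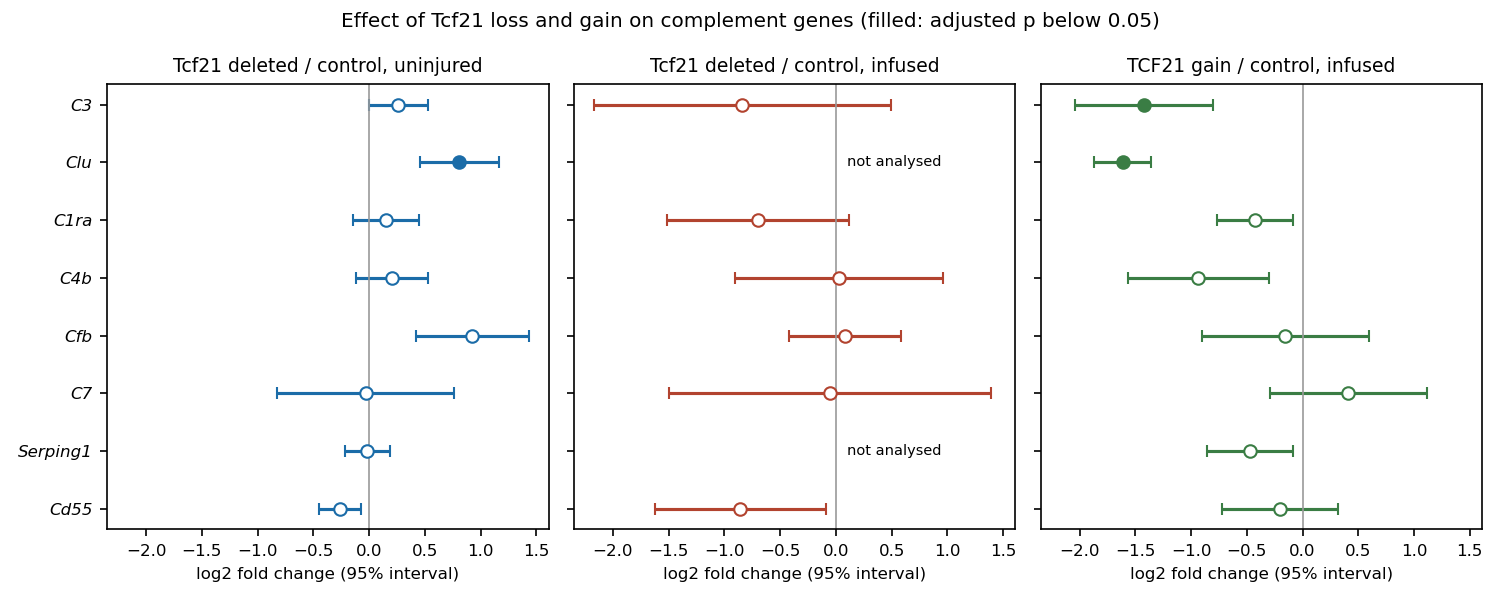
Log2 fold change of each of the 8 genes in the 3 comparisons (mutant over control) with 95% intervals; filled points have an adjusted p below 0.05. C3 and Clu are filled on the negative side for gain, Clu is filled on the positive side for uninjured loss, and 0 points are filled for infused loss.

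Counted together after gain of TCF21, 2 of the 8 genes fell (C3 and Clu), 0 rose and 6 did not pass, where 4.14% of 15369 tested genes passed in either direction and 2.57% fell. The median log2 fold change of the 8 was -0.45, beside 0.01 over all tested genes, and 7 of the 8 were below 0. In 5 of the 8 (C3, Clu, C1ra, C4b and Serping1) both gain libraries lay below all controls, which was so for 20.1% of all tested genes. Gain library 2 was the lowest of its table for 5 of the 8, and for 21.3% of all tested genes.

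Without injury 1 of the 8 genes rose after loss of Tcf21 (Clu), 0 fell and 7 did not pass, where 3.58% of 15544 tested genes passed in either direction and 1.63% rose. The median was 0.18, beside -0.01 over all tested genes, with 5 of the 8 above 0 and 3 below. All deleted libraries lay above all controls for Clu and Cfb, as for 14.1% of all tested genes, and below them for Cd55, as for 13.6%. Deleted library 3 was the highest of its table for 5 of the 8, and for 19.5% of all tested genes.

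After infusion 0 of the 6 genes analysed passed after loss of Tcf21 by limma, where 0.912% of 14799 tested genes did. By the unadjusted limma p across all genes, 1 of the 6 lay under 0.05 (Cd55), as did 16.1% of all tested genes. The median was -0.38, beside 0.00 over all tested genes, with 4 of the 6 below 0. Both deleted libraries lay below all controls for 1 of the 6 (Cd55), as for 17.7% of all tested genes. Control 1 was the highest of the 5 libraries for 6 of 6, and it was the highest for 25.3% of all tested genes.

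The effects of gain and loss were also set against each other. In a contrast of the gain effect and the uninjured loss effect, chosen after the data were seen because Clu and Serping1 were not analysed in infused loss, 2 of the 8 genes passed, where 6.77% of 14673 tested genes did. Clu had a difference of -2.42 on the log2 scale (SE 0.208, 95% interval -2.88 to -1.97, adjusted p = 0.000126), and C3 of -1.69 (SE 0.307, 95% interval -2.36 to -1.02, adjusted p = 0.00841). Both passed without each of the 11 libraries in turn. Infusion, the Cre line and the table differ between these arms as well and cannot be told apart from the direction of the Tcf21 change. C4b (-1.14, adjusted p = 0.0624) and Cfb (-1.08, adjusted p = 0.161) had differences of the same sign that did not pass.

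Between gain and loss within the infused setting, 0 of the 6 genes analysed passed by limma, where 2.93% of 14319 tested genes did, and 0 of the 6 had an unadjusted p under 0.05, where 16.3% of all tested genes lay. The difference for C3 was -0.59 with a 95% interval of -2.20 to 1.02, so a difference of the size seen against uninjured loss lies inside it. For C1ra it was 0.27, with an interval of -0.68 to 1.23. The loss effect after infusion minus that without injury also gave 0 of 6, where 0.149% of 14130 tested genes passed, and 1 of the 6 had an unadjusted p under 0.05 (Cfb, -0.84, 95% interval -1.63 to -0.063, adjusted p = 0.395), as had 11.6% of all tested genes. All 6 of these differences were below 0, with a median of -0.72 beside 0.01 over all tested genes.

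The other complement genes were counted on a list of 59 genes by role, the 8 above included. After gain 37 were tested, of which 1 rose (Masp1), 3 fell (C3, Clu and Cd59a) and 33 did not pass, where 4.14% of all tested genes passed. The median log2 fold change of the 37 was -0.10. They include C1s2, which reached the mean of 10 needed for testing through its controls alone (group means 6.83 gain and 14.3 control). Masp1, a protease of the lectin pathway, held 1013 and 683 normalized counts in the gain libraries, against 317, 404 and 277 in controls. Both gain libraries lay above all controls (log2 fold change 1.34, SE 0.224, adjusted p = 0.0235). The call was lost without gain control 1 (adjusted p = 0.0778), gain library 1 (adjusted p = 0.125) or gain library 2 (adjusted p = 0.05), and without a variance trend (adjusted p = 0.11). Cd59a, a membrane inhibitor of the terminal complex, held 325 and 390.0 in the gain libraries, against 678, 686 and 527 in controls, without overlap (log2 fold change -0.81, SE 0.169, adjusted p = 0.045). That call was lost without gain library 1 (adjusted p = 0.226), gain library 2 (adjusted p = 0.124), gain control 1 (adjusted p = 0.127) or gain control 2 (adjusted p = 0.101), and without a variance trend (adjusted p = 0.136).

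By role, all 4 tested fluid-phase regulators had negative log2 fold changes after gain, with a median of -0.80, and 1 of them passed (Clu). C1s1, which encodes the protease that C1r activates, held 9675 and 8611 normalized counts in the gain libraries, against 14008, 11725 and 15623 in controls (log2 fold change -0.58, SE 0.133, adjusted p = 0.0595). It did not pass, although the groups did not overlap. The 6 tested receptors, most of them leukocyte genes such as C3ar1 and C5ar1, had a median of 0.96, with 0 past the threshold by limma and 3 at an unadjusted p under 0.05, where 20.4% of all tested genes lay. The 6 tested recognition genes had a median of 0.17, with 0 past the threshold by limma and 0 at an unadjusted p under 0.05.

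Without injury 42 genes of the list were tested after loss of Tcf21, of which 1 rose (Clu), 1 fell (Vtn) and 39 did not pass, where 3.58% of all tested genes passed. Several of the 42 reached the mean of 10 needed for testing through 1 group alone. Beside those named below, these were C6 (group means 18.5 deleted and 2.45 control), C5ar1 (42.7 and 6.80) and C5ar2 (16.6 and 8.00). A median of the 42 is therefore not given. The remaining gene, Cd93, is given by its values below. Vitronectin (Vtn), a matrix protein that also blocks the terminal complex, held 1414, 1508 and 1178 normalized counts in Tcf21 deleted libraries, against 1964, 1889.5 and 1930.1 in controls. All deleted libraries lay below all controls (log2 fold change -0.50, SE 0.109, adjusted p = 0.0438). This call was lost without deleted library 3 (adjusted p = 0.0654), control 1 (adjusted p = 0.128), control 2 (adjusted p = 0.169) or control 3 (adjusted p = 0.169), with median centring (adjusted p = 0.0525) and without a variance trend (adjusted p = 0.147). Cd93, a receptor-like glycoprotein of endothelial and myeloid cells, was listed at 0, 0 and 0.926 in Tcf21 deleted libraries, against 27.8, 14.0 and 19.9 in controls. It reached the mean of 10 needed for testing through its controls alone (group means 0.309 and 20.6), so its call is not counted here. Of the 10 tested proteases 0 passed the threshold by limma. Cfi (group means 23.9 deleted and 5.44 control), C1rb (14.4 and 9.86) and Masp2 (3.40 and 19.0) reached the mean of 10 through 1 group alone. The signs of the 10 are therefore not counted here. Cfb had an unadjusted limma p under 0.05, as had 21.2% of all tested genes. Masp2 had one too, which is not counted for the same reason. After infusion 34 genes of the list were tested after loss of Tcf21, of which 0 passed by limma, where 0.912% of all tested genes did. An unadjusted limma p under 0.05 was found for 5 of the 34, beside 16.1% of all tested genes. Cfhr2 (group means 9.88 deleted and 13.2 control) reached the mean of 10 there through its controls alone. The signs of the 34 are therefore not counted.

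**Figure D3:**
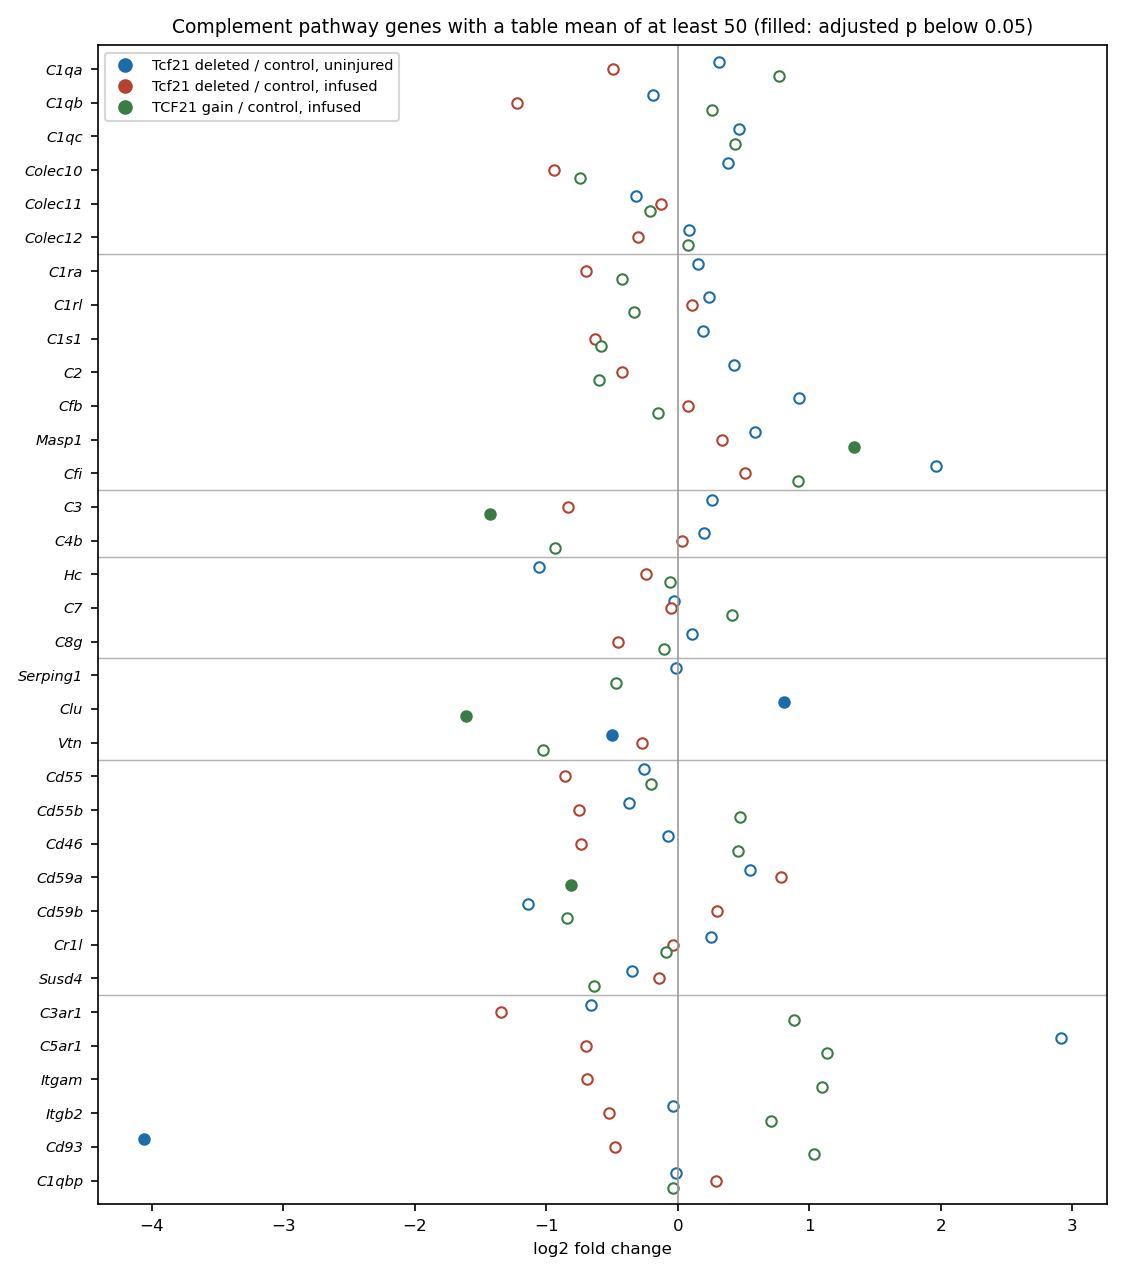
Log2 fold change (mutant over control) of the 34 complement genes on the list with a mean of at least 50 in at least 1 table, grouped by role from recognition proteins at the top to receptors at the bottom; filled points have an adjusted p below 0.05. Filled points are C3, Clu, Cd59a and Masp1 for gain and Clu, Vtn and Cd93 for uninjured loss, where Cd93 was tested only because its controls were high.

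Within the libraries several of these genes moved together. After centring each gene on its table mean, the log2 values of C1ra and C1s1 correlated at r = 0.974 over the 16 libraries, and C1s1 was the most alike of 11209 genes searched. C3 correlated at 0.936 with C1s1, 0.880 with C4b and 0.867 with C1ra. The genes most like C3 were Fmo5 (0.976), Sox7 (0.960), Mgst1 (0.950), Rab3d (0.948) and Gstk1 (0.944). Those most like Cd55 were Naaa (0.956), Hs3st1 (0.928) and Prelp (0.927), while Cfb reached at most 0.848 (Naa10). The points share their tables, their group effects and whatever sets infused control 1 apart, so these values describe the libraries and carry no test.

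**Figure D4:**
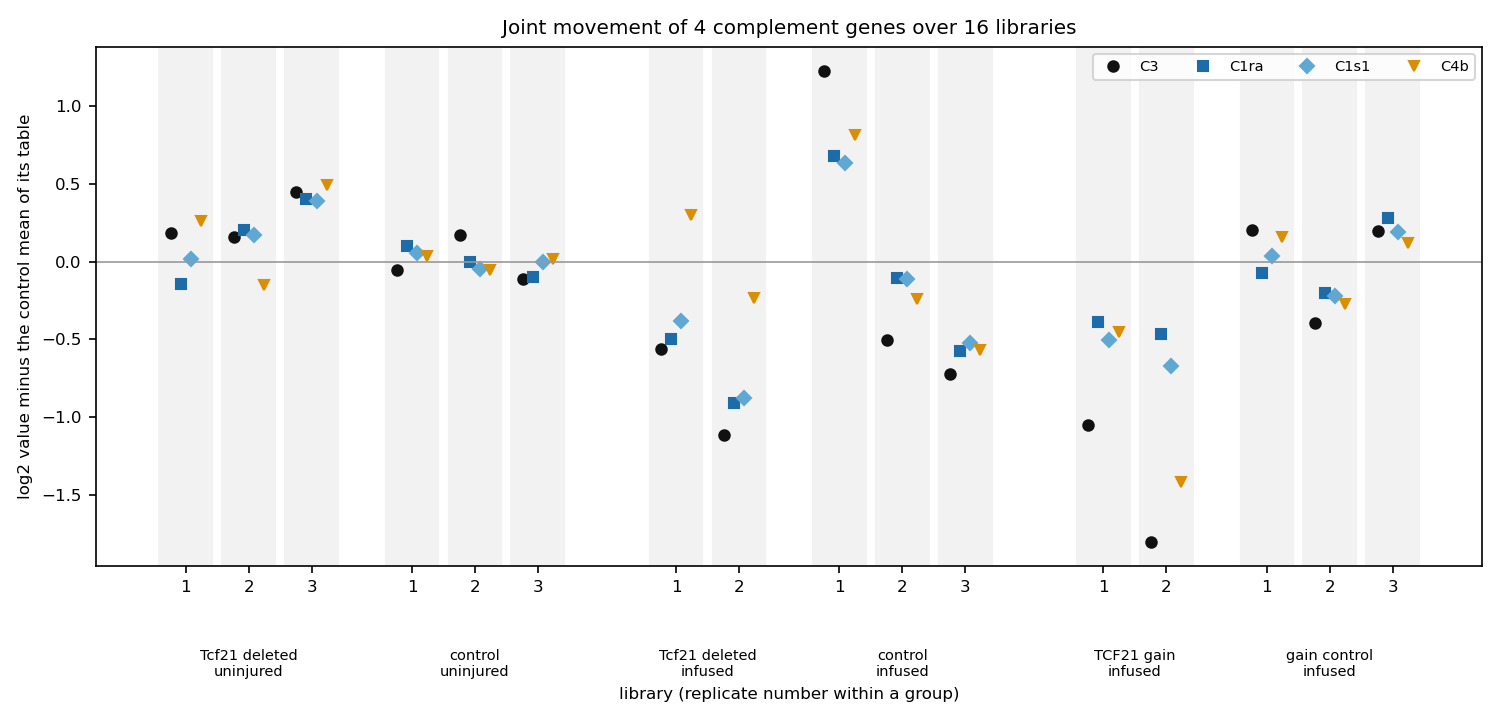
Log2 value of C3, C1ra, C1s1 and C4b in each of the 16 libraries minus the control mean of its table, with the replicate number on the horizontal axis and the mutant group left of its control. Infused control 1 lies above its table's control mean for all 4 genes, and both gain libraries lie below theirs for all 4.

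C1ra and C1s1 are neighbours, 6902 bases apart on chromosome 6 (C1ra 124512405 to 124523443, plus strand, GRCm38, GENCODE vM21). C4b (34728380 to 34743882) and Cfb (34856374 to 34862518) lie 112492 bases apart on the minus strand of chromosome 17, and C2 lies 86 bases from Cfb. C3 is on the same chromosome (57203970 to 57228136, minus strand). C7 is on chromosome 15 (4988762 to 5063740), Serping1 on chromosome 2 (84765387 to 84775444) and Cd55 on chromosome 1 (130439027 to 130462744), all on the minus strand. Sequence shared with other genes makes some of the estimated counts uncertain. Of the 31-base words in transcripts, Cfb shared 75.5% with the read-through annotation Gm20547, C1ra shared 59.6% with other genes, mainly C1rb, C4b shared 48.3% with C4a, and Cd55 shared 13.0%, mainly with Cd55b. C1rb was listed at no more than 20.7 and C4a at no more than 23.1 normalized counts in any library. C3, Clu, C7 and Serping1 shared 0 of these words.

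Markers of other cells and of cell state differed between groups beside these results. In the gain comparison the 10 fibroblast markers summed to 3051410 to 3300040 normalized counts in gain libraries and 4333810 to 4628950 in controls, with 1 of the 10 past the threshold (Tcf21). Immediate early genes, which respond to cell handling and stress, summed to 377556 to 445545 in gain libraries and 601181 to 887569 in controls. Of the 26 tested 6 fell and 1 rose, where 2.57% of all tested genes fell and 4.14% passed in either direction. The 19 listed myeloid markers, C1q genes and Itgam among them, summed to 3322 to 6128 in gain libraries and 2795 to 4311 in controls. Of the 18 tested 0 passed the threshold. Their part in the lower C3 and Clu was not tested.

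In infused loss, immediate early genes summed to 257996 to 314753 in Tcf21 deleted libraries and 360713 to 559984 in controls, and the highest control was control 1. Myeloid markers summed to 640 to 920 in deleted libraries and 1064 to 1252 in controls, with 1 of 14 lower (Cd74). Erythroid and platelet markers summed to 183 to 504 in deleted libraries and 71.1 to 78.6 in controls, with 1 of 5 higher (Hba-a1). Of all tested genes 0.912% passed in this comparison. In uninjured loss, markers of mural cells (pericytes and smooth muscle) summed to 11370 to 12243 in deleted libraries and 16257 to 18066 in controls. Of these 12 markers 4 passed as lower, where 3.58% of all tested genes passed in either direction. Vtn, 1 of the 4, is on both lists. Myeloid markers summed to 1792 to 2596 in deleted libraries and 1534 to 1694.5 in controls, with 0 of 16 past the threshold. Endothelial markers summed to 16754 to 18109 in deleted libraries and 19279 to 20419.7 in controls. Of the 8 endothelial markers tested 0 passed and 5 were lower in every deleted library than in every control, as were 13.6% of all tested genes. Log2 fold changes were above 0 for 2 of the 8. Cdh5 was listed at 0 in all deleted libraries, but its mean over both groups was under the 10 needed for testing. Erythroid and platelet markers summed to 374 to 1199 in deleted libraries and 263 to 299 in controls, with 0 of 6 past the threshold. Their part in the values of Clu, Vtn, Cd55 and Cd93 was not tested.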

How the data were processed

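RNA of sorted fibroblasts was amplified with a low-input cDNA kit, per the labels' protocols. Each of 3 deposited tables holds a normalized signal (estimated counts of a gene, scaled by the authors table by table). The submitters' processing notes name kallisto, DESeq2 and GRCm38, without versions. Low values (0.5 to 6) lay within 0.03 of a whole-read step in 35.6% to 67.4% of cases, which is too few to recover whole reads, and count models were not used.

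Groups came from the labels. Genes averaging at least 10 were tested on log2(value + 1), which understates changes of low genes, with limma 3.58.1 in R 4.3.3 (variance trend, two-sided, p adjusted by Benjamini-Hochberg over all tested genes, threshold 0.05). Each fit held the 2 groups compared. Differences between effects were contrasts over 4 groups. The genes and lists were chosen with earlier results of these data known. Other complement genes are named where they passed, where their product acts with one of the 8, or for their likeness to one. The fits were tested on simulated data. Alternatives varied the pseudocount, filter, scaling, variance model, library weights and replicate block, and left out each library.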

Additional observations from a re-analysis of the deposited data

Results flagged for a closer look

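In 7 cases the effect on a complement gene differed between the arms by a limma contrast, each difference being on the log2 scale and adjusted over all genes of the contrast. These were 2 of 33 tested genes of the complement list for gain minus infused loss, where 2.93% of all tested genes passed. For gain minus uninjured loss they were 5 of 36, where 6.77% did. Of those 5, 4 had negative differences. The other, Cd93, was kept for testing in the uninjured table through its controls alone, so its call is not counted as a result. Gain after infusion minus loss after infusion was 2.23 for C3ar1, the receptor of the C3a fragment (SE 0.506, adjusted p = 0.0486), and -1.60 for the terminal complex inhibitor Cd59a (SE 0.314, adjusted p = 0.0281). C3ar1 held 87.9 and 139.7 normalized counts in gain libraries, against 42.5, 58.8 and 84.6 in their controls, and 17.2 and 11.6 in infused Tcf21 deleted libraries, against 35.0, 41.6 and 35.6 in theirs. C3ar1 passed in 1 and Cd59a in 4 of the 10 fits that left out a library. C3ar1 also missed the threshold with a pseudocount of 10 (adjusted p = 0.0557), without the filter on low values (0.0555), with median centring (0.0535) and without a variance trend (0.0546), as Cd59a did without a trend (0.0634).

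Gain after infusion minus loss without injury, a contrast chosen after seeing the data, was -2.42 for Clu (adjusted p = 0.000126), -1.69 for C3 (adjusted p = 0.00841), -0.78 for C1s1 (adjusted p = 0.0241), -1.36 for Cd59a (adjusted p = 0.045) and 5.10 for Cd93 (adjusted p = 0.00179). Clu and C3 passed in 11 of 11 fits that left out a library, C1s1 in 6 and Cd59a in 4. Without a variance trend C1s1 (adjusted p = 0.0668) and Cd59a (adjusted p = 0.0915) missed the threshold. The value of Cd93 rests on uninjured Tcf21 deleted libraries listed at 0, 0 and 0.926 normalized counts, and Cd93 was kept for testing in that table through its controls alone. The 2 arms of this contrast differ in infusion, Cre line and table too, which cannot be told apart from the change in Tcf21.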

How the results depend on the processing

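The directions of C3 and Clu in the gain and uninjured loss comparisons held under all alternatives run, and no scaling changed how many of the 8 genes lay above or below 0. Tests with 2 or 3 libraries a group limit what can be called, and depth per library is unknown.

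Of the 8 genes, the number past the threshold in uninjured loss was 1, and it was 2 with a pseudocount of 10, a mean of at least 50, library weights or the replicate block, and 0 without a variance trend or over genes listed in all 3 tables, which leaves out Clu by construction. It was 0 in infused loss, and 3 with the block (C3, C1ra and Cd55). In gain it was 2, and 1 without a trend or over genes listed in all 3 tables, and 6 with the block. For gain minus infused loss it was 0, and 3 with the block, and for gain minus uninjured loss 2, 4 with the block and 1 over genes listed in all 3 tables. With 1 library left out these counts ranged over 0 to 2 (uninjured loss), 1 to 3 (gain) and 2 to 3 (gain minus uninjured loss), and stayed at 0 in infused loss and in the other 2 contrasts.

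On the list of 59 complement genes the count, Cd93 included, was 3 in uninjured loss (1 without a trend, 0 to 4 with 1 library left out), 0 in infused loss (6 with the block), and 4 in gain (1 without a trend, 13 with the block, 1 to 4 with 1 library left out). It was 0 for infused minus uninjured loss (1 without a trend or with the block, 0 to 1 with 1 library left out). For gain minus infused loss it was 2 (1 without the filter, with a mean of at least 50, with median centring or without a trend, 7 with the block, 0 to 2 with 1 library left out), and for gain minus uninjured loss 5 (3 without a trend, 2 to 6 with 1 library left out).

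Over all genes, the calls without a trend, with library weights, with the replicate block and with 1 library left out were 94, 949, 227 and 88 to 891 in uninjured loss, 72, 308, 1462 and 32 to 175 in infused loss, and 25, 1013, 1842 and 124 to 821 in gain. For infused minus uninjured loss they were 39 with weights, 79 with the block and 12 to 57. For gain minus infused loss they were 263, 780, 901 and 155 to 436, and for gain minus uninjured loss 604, 1586, 603 and 444 to 1310. The cause of these shifts was not tested.

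Log2 values that changed sign were those of genes not called. In infused loss C7 was 0.13 with weights and -0.57 to 0.56 with 1 library left out, C4b was -0.25 with the block and -0.25 to 0.44, and Cfb was -0.059 to 0.29. In infused minus uninjured loss C4b was 0.032 and C7 0.44 with weights, and with 1 library left out they were -0.45 to 0.24 and -0.54 to 0.59. With 1 library left out, uninjured loss gave C7 -0.52 to 0.27 and Serping1 -0.040 to 0.013, gain gave Cfb -0.48 to 0.16 and Cd55 -0.52 to 0.12, gain minus infused loss gave Cfb -0.56 to 0.078, C1ra -0.067 to 0.56 and C7 -0.15 to 0.98, and gain minus uninjured loss gave Cd55 -0.26 to 0.38.

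Replicate numbers are shared between groups. Deviations of same-numbered libraries correlated at -0.054 to 0.18, and not above 0.1 in every pair. In a group of 2 libraries the deviations mirror each other, so these values cannot settle whether same-numbered libraries were paired. With the block the adjusted p was 0.0838 for Vtn and 0.0899 for Cd93 in uninjured loss, and 0.076 for Cd59a in gain minus uninjured loss. In the infused comparisons the block leaves 1 residual degree of freedom, and control 3, with no partner, adds nothing to the fold change.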
